A study of Mus musculus with 16 samples.

Results

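The 31 genes described here encode proteins of the synapse and of synaptic vesicle release, from the scaffold of the presynaptic active zone to the postsynaptic density, and they were followed in the sciatic nerve of mice that lack Beclin 1 in Schwann cells. They were chosen by name, as a list of gene symbols, with earlier results of these data known. All 31 were measured, out of 19505 genes in all. Their mRNA was read on 16 Clariom S mouse arrays of total sciatic nerve RNA, with 4 arrays in each of 4 groups. The groups were Becn1 cKO mice at P10 (10 days old), control mice at P10, Becn1 cKO mice at 2 months and control mice at 2 months. According to the methods of the study, cKO mice were Becn1 fl/fl with a Cre transgene active in Schwann cells and controls were Becn1 fl/fl or Becn1 fl/+ littermates without Cre, so every group carried a floxed Becn1 allele; the labels call the control arrays wild-type. The axons, macrophages, fibroblasts and vessels of the same nerve are not targeted by this Cre. Animals of both sexes were used in the study, the sex behind each array is not given in the labels, and the labels do not say whether the arrays of a group came from separate animals. The p-values below then measure only the spread between these samples, which may be technical.

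Transmitter release is the work of several layers of protein. A scaffold of large proteins at the active zone (Piccolo, Bassoon, RIM, ERC and Munc13 proteins) holds vesicles close to calcium channels, SNARE proteins on the vesicle and on the plasma membrane zip together to fuse them, complexins and synaptotagmins set the time of fusion, and neurexins and neuroligins bind the presynaptic to the postsynaptic membrane. The sciatic nerve holds axons and their glia, while the cell bodies of the motor and sensory neurons lie in the spinal cord and the ganglia, and the synapses of motor axons lie in muscle. Several proteins of this machinery, among them SNARE proteins and synaptotagmins, also serve secretion in cells that are not neurons.

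Of the 31 genes, 8 rose with age in control nerves and were lower in cKO than in control nerves at 2 months. Both comparisons use the same control arrays at 2 months, so that high control values alone can give both calls. The share of all genes with both calls is not given here, so this count has no background to be read against. Upstream sequences are shown for 3 of the 8 genes, Pclo, Cplx1 and Gpm6a. The 3 did not move together at P10, where their log2 changes in cKO against control nerves were -1.67, -0.01 and 0.64. Each run holds the 250 bases before a RefSeq start site on the strand of the gene, in build GRCm38.p6, and the capitals mark a GC box (GGGCGG on either strand) or a TATA motif (TATAAA on either strand). Pclo lies at chr5:14514668-14514917 on the plus strand, Cplx1 at chr5:108550028-108550277 on the minus strand, and the 2 Gpm6a starts at chr8:54779184-54779433 and chr8:54954478-54954727 on the plus strand.
Pclo: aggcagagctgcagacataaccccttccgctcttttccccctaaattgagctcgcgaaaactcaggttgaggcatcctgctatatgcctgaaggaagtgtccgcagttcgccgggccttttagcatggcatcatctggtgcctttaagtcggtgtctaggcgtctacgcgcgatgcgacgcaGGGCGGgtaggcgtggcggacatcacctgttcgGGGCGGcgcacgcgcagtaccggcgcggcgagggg
Cplx1: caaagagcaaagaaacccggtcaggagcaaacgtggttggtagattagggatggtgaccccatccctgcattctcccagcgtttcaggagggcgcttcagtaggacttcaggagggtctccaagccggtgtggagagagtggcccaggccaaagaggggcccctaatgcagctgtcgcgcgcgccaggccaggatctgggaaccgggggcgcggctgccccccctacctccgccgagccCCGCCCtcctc
Gpm6a, upstream start: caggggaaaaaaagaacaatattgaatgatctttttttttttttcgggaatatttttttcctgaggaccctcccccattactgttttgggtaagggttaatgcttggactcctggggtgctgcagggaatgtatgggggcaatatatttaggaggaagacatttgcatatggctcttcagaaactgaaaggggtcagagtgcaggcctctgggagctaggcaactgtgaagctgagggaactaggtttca
Gpm6a, downstream start: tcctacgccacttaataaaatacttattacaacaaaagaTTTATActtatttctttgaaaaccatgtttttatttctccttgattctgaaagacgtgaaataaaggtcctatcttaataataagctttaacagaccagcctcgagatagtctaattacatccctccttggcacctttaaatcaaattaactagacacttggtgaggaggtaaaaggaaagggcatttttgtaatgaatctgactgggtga
The Pclo run has 61.2% G and C and 25 CpG pairs, and the Cplx1 run 64.8% and 15. The Gpm6a runs have 44.4% and 33.6% with 1 and 3 CpG pairs, against medians of 52.4% and 6 over 32851 RefSeq promoters. Of the 31 genes, 24 had a start in the promoter table, with 36 starts between them. A GC box stood in 15 of these 36 starts and in 32.7% of all promoters, and TATAAA in 3 of 36, at Gpm6a and Sv2b, and in 12.4% of all promoters. These matches describe the letters only. Cacna1a, Rims2, Shank2, Syt4, Snap25, Nrxn2 and Vamp2 had no promoter in the table.

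The authors deposited robust multiarray averages (RMA) in log2 units, so that a difference of 1 is a doubling. Levels of single genes are not ranked against each other here, because their probes differ. The lower quartile and median of all gene means serve only as a rough mark of low signal. Correlations between arrays were 0.975 to 0.994 within groups and 0.929 to 0.977 between groups. Becn1 itself read 8.21, 8.12, 8.30 and 8.39 in cKO nerves at P10, against 8.62, 8.57, 8.52 and 8.72 in control nerves, and 8.24, 8.23, 8.18 and 8.10 in cKO nerves at 2 months, against 8.53, 8.44, 8.46 and 8.36 in control nerves. The groups did not overlap at either age, although the change was small, at -0.35 (standard error 0.10, adjusted p = 0.0397 by limma) at P10 and -0.26 (0.09, adjusted p = 0.0312) at 2 months; its call was lost without any of the arrays except cKO replicate 4 at P10, with adjusted p up to 0.131, and without any except cKO replicates 1 and 2 and control replicate 4 at 2 months, with adjusted p up to 0.102. The P10 call was also lost with median centring (adjusted p = 0.0528), further quantile normalization (0.0646), no intensity trend (0.0607) and a replicate block (0.0781), and the 2-month call with that block (0.0556). Replicate 4 of the control arrays at P10 had the highest mean of 15 skeletal muscle markers, 11.04, where the other 15 arrays ranged from 5.47 to 9.13. Leaving this array out gave 2 higher and 5 lower calls among the 31 genes at P10, against 2 and 4 with it. The share of all genes called without this array is not given here.

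At P10, few of the 31 genes differed between cKO and control nerves. A gene is called here where limma gave a Benjamini-Hochberg adjusted p under 0.05 over all 19505 genes. Sv2b and Gpm6a were higher, 2 of 31 genes where 5.48% of all genes were called higher, and Pclo, Cacna1a, Syp and Syt11 were lower, 4 of 31 where 7.44% of all genes were called lower. At 2 months, 16 of the 31 genes were called. Syt4, Sv2b and Unc13b were higher, 3 of 31 where the share over all genes was 18.5%. The 13 that were lower (Pclo, Gpm6a, Cacna1a, Snap25, Nlgn1, Cplx1, Syp, Rims1, Erc2, Vamp1, Vamp2, Gphn and Syt1) stood where 15.5% of all genes were called lower. The median log2 change of the 31 genes was -0.09 at P10 and -0.33 at 2 months, while that of all genes was 0.0024 and -0.02016. Because the list was chosen with earlier results of these data known, its counts and medians beside those of all genes are descriptive only. Pclo, Cacna1a and Syp were lower at both ages, Sv2b was higher at both, and Gpm6a was higher at P10 and lower at 2 months. The 14 genes called at neither age (Bsn, Rims2, Unc13a, Stx1a, Cplx2, Sv2a, Syn1, Syn2, Cacna1b, Nrxn2, Nrxn3, Dlg4, Homer1 and Shank2) had log2 changes between -0.48 and 0.17 at P10 and between -0.45 and 0.17 at 2 months. In whole nerve, fewer cells of a type and less RNA per cell cannot be told apart in any of these values.

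**Figure D1:**
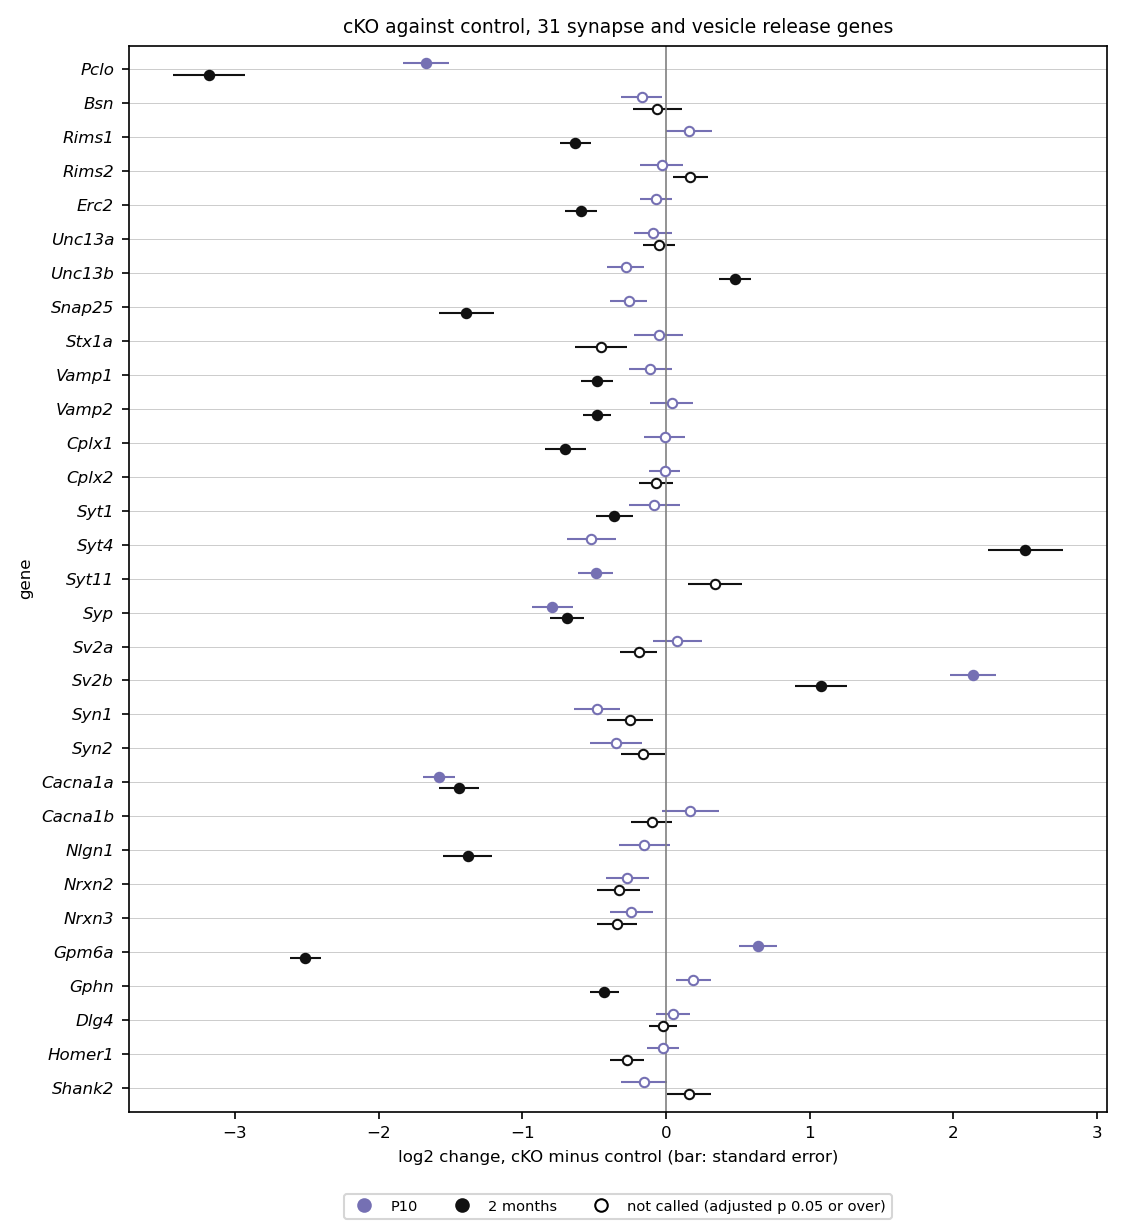
Log2 change of each of the 31 genes in cKO against control nerves (x axis) at P10 (violet) and at 2 months (black), with bars for the standard error from limma and open points for genes not called. Most points lie near 0 at P10, while Pclo, Gpm6a, Snap25, Cacna1a and Nlgn1 lie below -1 and Syt4 above 2 at 2 months.

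Other cell types of the nerve moved with genotype in the same arrays. Of 9 markers of the myelinating Schwann cell, 9 were lower in cKO nerves at P10 and 8 at 2 months, with mean levels of 9.86 to 10.08 in cKO nerves against 11.28 to 11.52 in control nerves at P10, and 8.49 to 8.76 against 10.23 to 10.74 at 2 months. By limma, 0 of 13 macrophage markers were called at P10, with 4 higher at an unadjusted p under 0.05, and 12 were higher at 2 months, with mean levels of 9.64 to 9.86 in cKO nerves and 7.88 to 8.31 in control nerves. Among 12 axonal cytoskeleton genes, 2 higher and 1 lower calls were made at P10, then 2 higher and 4 lower ones at 2 months, with mean levels of 6.89 to 7.10 in cKO nerves and 7.02 to 7.39 in control nerves at the later age. This mean joins genes that moved in opposite directions. At 2 months the cKO ranges of Nefl, Nefm, Nefh and Stmn2 (7.25 to 7.54 against 8.12 to 9.09 for Stmn2) lay below the control ranges. Those of Mapt (8.19 to 8.85 against 7.09 to 7.54), Map1b and Tubb3 lay above. The neuron cell body list of 13 genes had 11 means below the lower quartile of all genes, 4.99, and 1 gene called higher at P10 and 1 lower at 2 months. Of 8 pigment cell markers, 5 were higher at each age and 1 was lower at 2 months, and of 6 markers of T and NK cells 5 were higher at 2 months. Endothelial markers were lower in 9 of 9 genes at P10 and 5 of 9 at 2 months, and adipocyte markers in 6 and 4 of 6. Of 10 markers of Schwann cells of any stage 3 were called higher in cKO nerves at P10 and 4 were called lower, and 4 and 4 at 2 months, of 8 fibroblast and perineurium markers 0 and 3 and then 1 and 5, and of 6 mast cell markers 1 and 1 and then 1 and 2. The part of these cell types in the changes of the synapse genes was not tested. Among the 31 genes, the mean over all 16 arrays of 1, Syn1, lay below that lower quartile and 17 lay below the median of all genes, 6.65. By group, Pclo (4.64 and 3.82) and Snap25 (4.73 and 4.76) averaged below the lower quartile in cKO nerves at P10 and 2 months. So did Syn1 (4.70 and 4.68) and Nrxn3 (4.87 and 4.85). In control nerves at 2 months Sv2b (4.65) and Syn1 (4.93) were below it. The folds of Pclo, Snap25 and Sv2b that rest on these groups are ratios of array values that were not shown to be above background.

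Among the 7 genes of the active zone scaffold and of vesicle priming, Pclo stood apart. Pclo encodes Piccolo, a giant scaffold protein of the active zone. It read 4.99, 4.80, 4.42 and 4.33 in cKO nerves at P10, against 6.23, 6.25, 6.35 and 6.40 in control nerves. At 2 months the values were 3.79, 3.85, 3.77 and 3.87 in cKO nerves, against 8.03, 6.69, 6.75 and 6.55 in control nerves. Every cKO array lay below every control array at both ages, by more than 1 log2 unit, and replicate 1 of the control nerves at 2 months stood above the other 3. The change was -1.67 (standard error 0.16, 3.19-fold lower, adjusted p = 5.53e-06 by limma) at P10 and -3.18 (0.25, adjusted p = 1.63e-07) at 2 months. The cKO mean at P10, 4.64, and all cKO values at 2 months lay below the lower quartile of gene means, 4.99. The deposited values carry no detection call, so that Pclo is not shown to be above background in cKO nerves at either age. Its fold at P10 carries this limit, and its fold at 2 months is not given.

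Rims1 and Erc2, which encode the RIM1 and ERC2/CAST scaffold proteins that link vesicles and channels at the active zone, were lower at 2 months. Rims1 read 6.11, 5.92, 6.02 and 6.0 in cKO nerves at 2 months, against 6.63, 6.69, 6.77 and 6.48 in control nerves. The groups did not overlap, and the change was -0.63 (standard error 0.11, adjusted p = 0.000542 by limma). Its P10 values overlapped, at 6.22, 6.20, 6.53 and 6.52 in cKO nerves against 5.82, 6.51, 6.20 and 6.30 in control nerves. Erc2 read 7.17, 7.24, 7.13 and 7.40 in cKO nerves at 2 months, against 7.90, 7.90, 7.62 and 7.87 in control nerves, with the highest cKO array under the lowest control array. Its change was -0.59 (0.11, adjusted p = 0.000521). At P10 the cKO arrays read 7.28, 7.30, 7.08 and 7.28 and the control arrays 7.32, 7.23, 7.22 and 7.44, a difference of -0.07 that was not called.

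Unc13b, which encodes the priming factor Munc13-2, went the other way. It read 8.2, 8.12, 8.51 and 8.28 in cKO nerves at 2 months, against 7.92, 7.83, 7.56 and 7.90 in control nerves. All 4 cKO arrays were above the control arrays, and the change was 0.48 (standard error 0.11, 1.39-fold higher, adjusted p = 0.00389 by limma). At P10 it read 7.49, 7.94, 7.69 and 7.64 in cKO nerves and 7.91, 8.24, 7.96 and 7.78 in control nerves, which overlapped. Its paralog Unc13a, the major Munc13 of brain synapses, had P10 means of 6.36 ± 0.17 (SD, n = 4) in cKO and 6.45 ± 0.10 in control nerves, and means of 6.37 ± 0.07 and 6.42 ± 0.11 at 2 months, and was not called. Bsn, which encodes Bassoon, a scaffold protein related to Piccolo, was not called either, with P10 means of 5.75 ± 0.17 in cKO and 5.92 ± 0.17 in control nerves, and means of 5.45 ± 0.28 and 5.51 ± 0.29 at 2 months. Rims2 had changes of -0.03 and 0.17.

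Of the 6 genes of SNARE proteins and complexins, 0 were called by limma at P10, nor did any pass an unadjusted p of 0.05, and 4 were lower in cKO nerves at 2 months. Snap25, a SNARE of the plasma membrane, changed most. At 2 months it read 4.90, 4.85, 4.61 and 4.67 in cKO nerves, against 6.63, 6.30, 6.13 and 5.52 in control nerves. The control arrays spread over more than 1 log2 unit, and all of them lay above the cKO arrays. The change was -1.39 (standard error 0.19, 2.62-fold lower, adjusted p = 4.88e-05 by limma). At P10 it read 4.71, 4.66, 4.64 and 4.90 in cKO nerves and 5.03, 5.01, 4.97 and 4.94 in control nerves, without overlap, and the difference of -0.26 was not called (adjusted p = 0.23).

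Cplx1 encodes complexin 1, which binds the assembled SNARE complex. It read 5.97, 5.75, 5.83 and 5.77 in cKO nerves at 2 months, against 6.73, 6.74, 6.37 and 6.25 in control nerves. The groups did not overlap, and the change was -0.70 (standard error 0.14, adjusted p = 0.00106 by limma). At P10 the cKO arrays read 5.97, 6.05, 5.99 and 5.71 and the control arrays 5.74, 6.01, 5.94 and 6.05, with means of 5.93 in both. The second complexin of the list, Cplx2, had a change of -0.01 at P10 and -0.07 at 2 months and was not called.

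The vesicle SNAREs Vamp1 and Vamp2, the synaptobrevins, were lower at 2 months by the same amount. Vamp1 read 7.5, 7.69, 7.76 and 7.47 in cKO nerves, against 8.14, 8.28, 7.86 and 8.07 in control nerves, a change of -0.48 (standard error 0.11, adjusted p = 0.00358 by limma). Vamp2 read 8.62, 8.86, 8.83 and 8.66 in cKO nerves, against 9.28, 9.41, 9.13 and 9.08 in control nerves, a change of -0.48 (0.10, adjusted p = 0.00147). Neither gene had an overlap between the groups at this age, and both overlapped at P10. The P10 values of Vamp1 were 7.52, 7.36, 7.40 and 7.14 in cKO nerves against 7.65, 7.37, 7.09 and 7.74 in control nerves, and those of Vamp2 9.62, 9.55, 9.45 and 9.08 against 9.33, 9.28, 9.16 and 9.78. Stx1a, which encodes syntaxin 1A, the partner of SNAP25 on the plasma membrane, had a change of -0.45 at 2 months that was not called (standard error 0.18, adjusted p = 0.0646), with 5.83 to 5.98 in cKO nerves and 5.88 to 6.72 in control nerves.

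The 3 synaptotagmins of the list, proteins of the vesicle membrane with C2 domains, moved in different directions. Syt4 encodes an atypical synaptotagmin found on secretory vesicles of neurons and other cells. At 2 months it read 11.06, 10.28, 10.45 and 10.44 in cKO nerves, against 8.69, 8.62, 7.45 and 7.46 in control nerves. All cKO arrays were more than 1 log2 unit above the highest control array, and the control arrays fell into a higher and a lower pair. Replicates 1 and 2 also read above replicates 3 and 4 for Snap25, Stx1a, Cplx1, Homer1, Nrxn2, Syt1, Vamp1, Vamp2, Syp and Erc2. They read below them for Cplx2, Cacna1b and Nrxn3. The other listed genes, among them Rims1 and Dlg4, showed neither order. Over the same arrays the mean of axonal cytoskeleton genes fell (7.39, 7.38, 7.22 and 7.02) and that of adipocyte markers rose (7.14, 8.19, 8.58 and 9.44). The mean of pigment cell markers was higher in replicates 1 and 2 (7.22 and 7.69) than in replicates 3 and 4 (5.84 and 6.74). Among these markers, Tyrp1 ranged from 4.57 to 11.66 and Trpm1 from 5.90 to 9.30 in the control arrays at 2 months. The other marker lists are not given by array here. The part of such differences between control arrays was not tested. The Syt4 change of 2.50 (standard error 0.26, 5.64-fold higher, adjusted p = 2.74e-06 by limma) was the highest of the 31 genes at 2 months. At P10 it read 5.58, 6.35, 5.80 and 6.13 in cKO nerves and 6.66, 6.40, 6.62 and 6.27 in control nerves. These values overlapped, and the difference of -0.52 was not called (adjusted p = 0.0635); without replicate 2 of the cKO nerves or replicate 4 of the control nerves at P10 it was called lower, with changes of -0.65 and -0.60 (adjusted p = 0.0268 and 0.0428).

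Syt11, another synaptotagmin that does not act as a calcium sensor for fusion, read 8.59, 8.85, 8.62 and 8.65 in cKO nerves at P10, against 9.25, 9.20, 9.38 and 8.84 in control nerves. A single control array, replicate 4, lay within the range of the cKO arrays. Its change was -0.49 (standard error 0.12, adjusted p = 0.0163 by limma), and it was no longer called without replicate 1 of the cKO nerves (adjusted p = 0.053) or replicate 1 or 3 of the control nerves (0.0503 and 0.062). At 2 months it read 8.90, 8.80, 8.83 and 8.87 in cKO nerves and 9.02, 8.53, 8.75 and 7.77 in control nerves, which overlapped. Syt1, the main calcium sensor of fast release, read 4.84, 4.96, 5.0 and 5.19 in cKO nerves at 2 months, against 5.46, 5.47, 5.23 and 5.24 in control nerves. The groups lay close together without overlap, and the change of -0.36 (0.13, adjusted p = 0.0475) was lost without replicate 1, 2 or 3 of the cKO nerves or replicate 1 or 2 of the control nerves, with adjusted p of 0.0866 to 0.126. At P10 Syt1 read 5.19, 5.10, 4.96 and 5.61 in cKO nerves and 4.88, 5.56, 5.39 and 5.32 in control nerves.

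Among the 5 genes of vesicle membrane proteins and synapsins, Syp and Sv2b were called at both ages and in opposite directions. Syp encodes synaptophysin, an abundant protein of the synaptic vesicle. It read 7.72, 7.38, 7.79 and 7.85 in cKO nerves at P10, against 8.25, 8.55, 8.78 and 8.33 in control nerves, and 7.90, 8.19, 7.76 and 7.75 in cKO nerves at 2 months, against 8.70, 8.67, 8.62 and 8.37 in control nerves. The cKO arrays lay below the control arrays at both ages, with changes of -0.79 (standard error 0.14, adjusted p = 0.00137 by limma) and -0.69 (0.12, adjusted p = 0.000282).

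Sv2b encodes synaptic vesicle glycoprotein 2B. It read 7.61, 7.56, 7.2 and 7.52 in cKO nerves at P10, against 5.45, 4.95, 5.26 and 5.66 in control nerves. At 2 months it read 5.45, 5.81, 5.96 and 5.68 in cKO nerves, against 4.51, 5.19, 4.43 and 4.46 in control nerves. The cKO arrays were higher at both ages without overlap, and replicate 2 of the control nerves at 2 months stood above the other 3. The change was 2.14 (standard error 0.16, 4.41-fold higher, adjusted p = 6.51e-07 by limma) at P10, the highest of the 31 genes at that age, and 1.08 (0.18, 2.11-fold, adjusted p = 0.000223) at 2 months. Its paralog Sv2a was not called at either age, with changes of 0.08 and -0.19. The synapsins Syn1 and Syn2, which tether vesicles to each other, were not called, with changes of -0.48 and -0.25 for Syn1 (adjusted p = 0.0575 and 0.282) and -0.35 and -0.16 for Syn2 (0.27 and 0.468). The P10 values of Syn1 did not overlap, at 4.44 to 4.97 in cKO nerves and 4.99 to 5.39 in control nerves, and without replicate 1 of the cKO nerves the gene was called lower (-0.57, adjusted p = 0.0402).

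**Figure D2:**
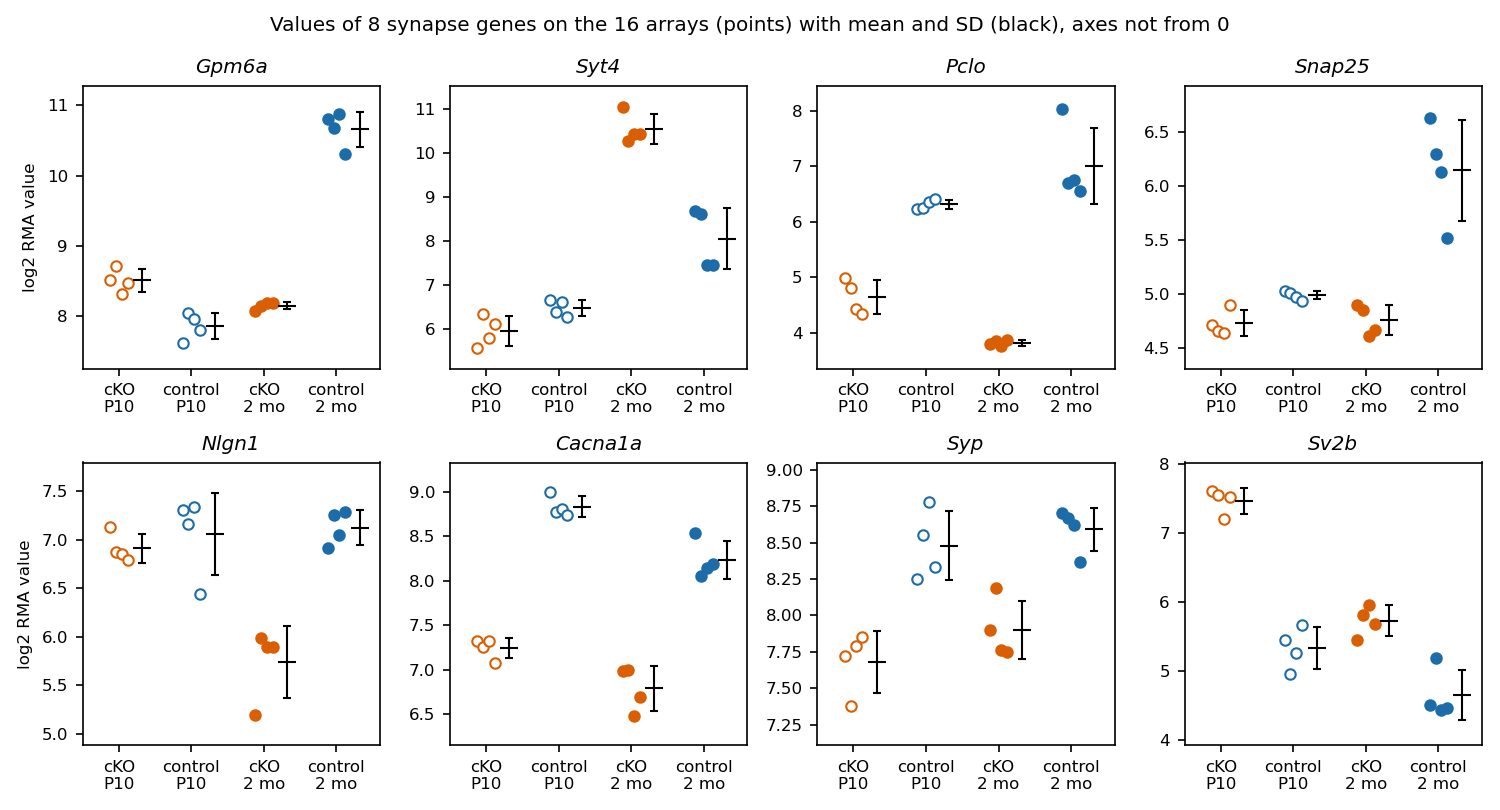
Log2 RMA values (y axes, each with its own range and not starting at 0) of 8 of the genes on the 16 arrays, in cKO (orange) and control nerves (blue) at P10 (open points) and 2 months (filled points), with mean and SD of 4 arrays in black. The cKO and control points do not overlap for Pclo, Cacna1a, Syp, Sv2b and Gpm6a at either age, and Gpm6a lies above control at P10 and below it at 2 months.

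Cacna1a and Cacna1b encode the pore subunits of the P/Q-type and N-type calcium channels, which trigger release at most synapses. Cacna1a read 7.32, 7.25, 7.32 and 7.08 in cKO nerves at P10, against 9.0, 8.77, 8.80 and 8.74 in control nerves, and 6.99, 7.0, 6.48 and 6.69 in cKO nerves at 2 months, against 8.54, 8.05, 8.14 and 8.19 in control nerves. Every cKO array was more than 1 log2 unit below every control array of its age. The changes were -1.58 (standard error 0.11, 3-fold lower, adjusted p = 2.95e-07 by limma) at P10 and -1.44 (0.14, 2.72-fold lower, adjusted p = 1.21e-06) at 2 months. Cacna1b was not called, with changes of 0.17 and -0.10.

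Of the 4 genes for adhesion and membrane glycoproteins, Gpm6a changed sign between the ages. It encodes a neuronal membrane glycoprotein of the proteolipid protein family that takes part in the growth of neurites. At P10 it read 8.51, 8.72, 8.32 and 8.47 in cKO nerves, against 7.62, 8.05, 7.96 and 7.81 in control nerves. At 2 months it read 8.08, 8.15, 8.19 and 8.19 in cKO nerves, against 10.81, 10.67, 10.87 and 10.31 in control nerves. The cKO arrays were all above the control arrays at P10 and all below them at 2 months. The change was 0.64 (standard error 0.13, 1.56-fold higher, adjusted p = 0.00272 by limma) at P10 and -2.51 (0.11, 5.7-fold lower, adjusted p = 9.37e-10) at 2 months.

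Nlgn1 encodes neuroligin 1, a postsynaptic adhesion protein that binds neurexins. It read 5.20, 5.99, 5.90 and 5.89 in cKO nerves at 2 months, against 6.91, 7.25, 7.05 and 7.28 in control nerves. The groups were apart, with replicate 1 of the cKO nerves below the other 3, and the change was -1.38 (standard error 0.17, 2.6-fold lower, adjusted p = 1.25e-05 by limma). At P10 it read 7.13, 6.87, 6.85 and 6.79 in cKO nerves and 7.31, 7.16, 7.34 and 6.44 in control nerves, which overlapped through replicate 4 of the controls. The neurexins Nrxn2 and Nrxn3, presynaptic partners of neuroligins, were not called. Their changes were -0.27 and -0.33 for Nrxn2 (adjusted p = 0.295 and 0.0961) and -0.24 and -0.34 for Nrxn3 (0.362 and 0.0804).

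Among the 4 postsynaptic scaffold genes 0 were called by limma at P10, and 0 at an unadjusted p under 0.05, and Gphn was the 1 called at 2 months. Gphn encodes gephyrin, which anchors glycine and GABA receptors and also makes the molybdenum cofactor in other tissues. It read 7.82, 7.79, 7.95 and 8.16 in cKO nerves at 2 months, against 8.45, 8.29, 8.40 and 8.30 in control nerves, with no overlap and a change of -0.43 (standard error 0.10, adjusted p = 0.00432 by limma). At P10 it read 8.08, 8.0, 7.69 and 7.90 in cKO nerves and 7.94, 7.54, 7.71 and 7.74 in control nerves, which overlapped. Dlg4, which encodes PSD-95, had changes of 0.05 and -0.02, Homer1 of -0.02 and -0.27, and Shank2 of -0.15 and 0.16, none of them called.

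The interaction of genotype and age compares the cKO difference at 2 months with that at P10, and 12 of the 31 genes were called in it. It was positive for Syt4 (3.02, adjusted p = 9.46e-06 by limma), Syt11 (0.83, 0.0338) and Unc13b (0.76, 0.00652), 3 of 31 where 7.69% of all genes were called so. The 9 negative interactions compare with 4.59% of all genes. They belonged to Gpm6a (-3.15, adjusted p = 2.49e-10), Pclo (-1.51, 0.0038), Nlgn1 (-1.23, 0.00385), Snap25 (-1.13, 0.00363), Sv2b (-1.06, 0.00824), Rims1 (-0.79, 0.0106), Cplx1 (-0.69, 0.0201), Gphn (-0.61, 0.0139) and Erc2 (-0.52, 0.0249). The cKO difference of Pclo was thus larger at 2 months than at P10, and that of Sv2b smaller. For Syp and Cacna1a the interaction was 0.11 (standard error 0.19) and 0.14 (0.18), and it was not called. The call of Syt11 was lost in 9 of 16 fits that left out 1 array (replicates 1 and 3 of cKO and 1, 2 and 3 of control nerves at P10, replicates 1, 3 and 4 of cKO and 2 of control nerves at 2 months), with adjusted p up to 0.0711. That of Erc2 was lost in 6 (replicates 1 and 2 of cKO and 3 of control nerves at P10, replicates 1 and 3 of cKO and 2 of control nerves at 2 months), with adjusted p up to 0.0532.

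Between P10 and 2 months, 2 of the 31 genes rose in cKO nerves, where 16.1% of all genes were called higher, and 9 rose in control nerves, where 13.8% were. The same samples enter the comparisons of cKO with control nerves, so that the values of each comparison are given side by side. Markers of other cells also moved with age. Myelinating Schwann cell markers were lower at 2 months in 9 of 9 genes in cKO nerves and 6 of 9 in control nerves, macrophage markers higher in 13 of 13 and 9 of 13 (1 was lower in control nerves), and skeletal muscle markers lower in 6 of 15 and 12 of 15, with medians of -1.47 and -2.77. Over all genes, 13.8% were called lower with age in cKO nerves and 15.2% in control nerves. The part of these markers in the age changes of the synapse genes was not tested. Without replicate 4 of the control nerves at P10, the array highest in muscle markers, 9 of the 31 genes were called higher with age in control nerves and 5 lower. The share of all genes called in that fit is not given here. In cKO nerves Gpm6a averaged 8.15 ± 0.05 (SD, n = 4) at 2 months and 8.51 ± 0.16 at P10, a change of -0.35 (standard error 0.12, adjusted p = 0.0321 by limma), while in control nerves it averaged 10.66 ± 0.25 at 2 months and 7.86 ± 0.19 at P10, a change of 2.80 (0.12, adjusted p = 2.72e-12). The rise was thus seen in control nerves only, and the interaction above tests that difference. The small fall in cKO nerves was lost in 6 of 8 fits without an array, with adjusted p up to 0.118, those without replicate 1 or 2 at P10 or any of the 4 arrays at 2 months. Snap25 averaged 4.76 ± 0.14 in cKO nerves at 2 months and 4.73 ± 0.12 at P10, a change of 0.03, and 6.15 ± 0.47 and 4.99 ± 0.04 in control nerves, a change of 1.16 (0.17, adjusted p = 2.06e-05). Its cKO means lay below the lower quartile of gene means, 4.99, and its control mean at P10 lay at it. Snap25 was not shown to be above background in these groups, so its flat course in cKO nerves is read with that limit.

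Of the other genes that rose in control nerves, 5 were not called with age in cKO nerves, as was Snap25. Vamp1 changed by 0.25 in cKO nerves and by 0.62 in control nerves, Gphn by 0.01 and 0.63, and Cplx1 by -0.10 and 0.59. Erc2 changed by -0.00 in cKO nerves and by 0.52 in control nerves, and Rims1 by -0.35 and 0.43. The interaction was called for Gphn, Cplx1, Erc2, Rims1 and Snap25, but not for Vamp1 (-0.38, standard error 0.19, adjusted p = 0.228), so that a difference between genotypes in its age change was not shown. The call of Rims1 in control nerves was lost without replicate 1 at P10 (adjusted p = 0.0861 by limma) or replicate 3 at 2 months (0.0622). Pclo averaged 3.82 ± 0.05 in cKO nerves at 2 months and 4.64 ± 0.31 at P10, a change of -0.82 (standard error 0.23, adjusted p = 0.00914), and 7.0 ± 0.69 in control nerves at 2 months and 6.31 ± 0.08 at P10, a change of 0.69 (0.23, adjusted p = 0.0262). The rise of Pclo in control nerves rested in large part on replicate 1 at 2 months, without which it was 0.35 (adjusted p = 0.0938), and its call was also lost without replicate 1 or 2 at P10 (0.0569 and 0.0546).

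Syt4 was the single gene of the 31 that was higher at 2 months in both genotypes. It averaged 10.55 ± 0.34 in cKO nerves at 2 months and 5.96 ± 0.34 at P10, a change of 4.59 (standard error 0.25, 24.1-fold higher, adjusted p = 1.56e-11 by limma), and 8.06 ± 0.69 and 6.49 ± 0.18 in control nerves, a change of 1.57 (0.25, 2.97-fold, adjusted p = 4.5e-05). Unc13b, the second gene that rose in cKO nerves, did so by 0.59 (0.12, adjusted p = 0.00088) in cKO nerves, while in control nerves it changed by -0.17 and was not called.

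Lower at 2 months than at P10 in cKO nerves were 9 of the 31 genes (Sv2b, Nlgn1, Pclo, Cplx2, Vamp2, Cacna1a, Sv2a, Dlg4 and Gpm6a), where 13.8% of all genes were called lower. In control nerves 6 genes were lower (Cplx2, Sv2b, Syt11, Cacna1a, Shank2 and Dlg4), where 15.2% of all genes were. Cplx2, Sv2b, Cacna1a and Dlg4 were thus lower in both genotypes. Cplx2, which did not differ between genotypes by the test at either age, fell by 0.79 (standard error 0.11, adjusted p = 9.2e-06 by limma) in cKO nerves and by 0.73 (0.11, adjusted p = 2.75e-05) in control nerves. Sv2b fell by 1.75 (0.18) in cKO nerves and by 0.68 (0.18) in control nerves. Nlgn1 fell by 1.17 (0.19, adjusted p = 5.12e-05) in cKO nerves and changed by 0.06 in control nerves. Vamp2 fell by 0.68 (0.13, adjusted p = 0.000387) in cKO nerves and changed by -0.17 in control nerves, and its interaction was not called (adjusted p = 0.0768). The call of Sv2a in cKO nerves was lost without replicate 2 or 3 at P10 or replicate 1, 2 or 3 at 2 months, with adjusted p up to 0.0932. That of Dlg4 in control nerves was lost without replicate 1 at P10 or 1 or 3 at 2 months (adjusted p up to 0.0727), and that of Shank2 without replicate 2 or 4 at P10 (up to 0.0628).

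**Figure D3:**
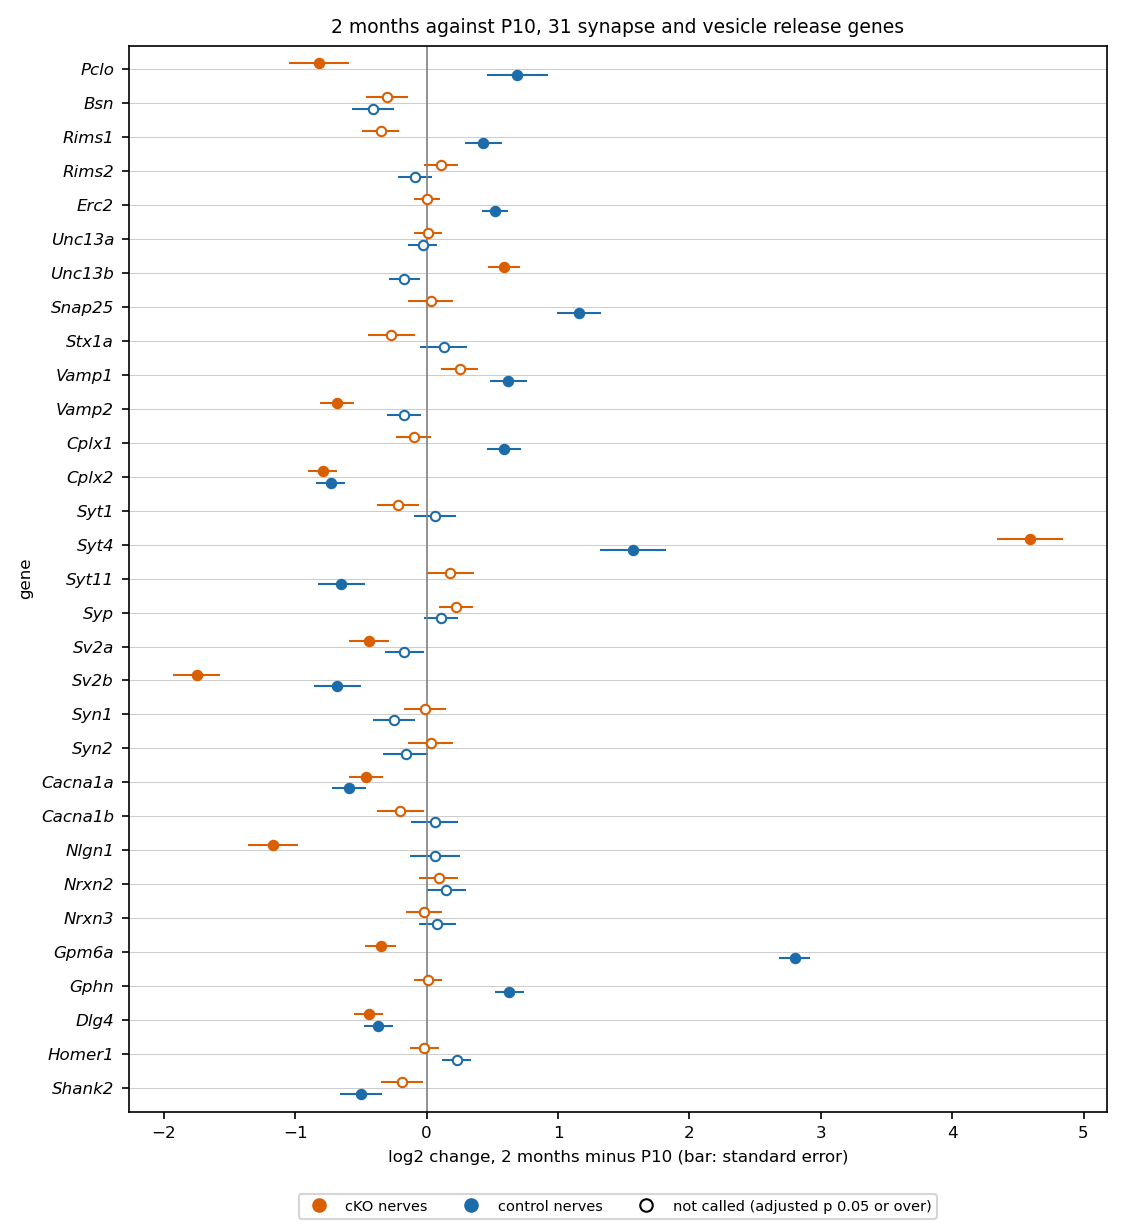
Log2 change of each of the 31 genes at 2 months against P10 (x axis) in cKO (orange) and control nerves (blue), with bars for the standard error from limma and open points for genes not called. Gpm6a, Snap25 and Pclo lie near or left of 0 in cKO nerves and right of 0 in control nerves, and Syt4 lies right of 0 in both, at 4.59 and 1.57.

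**Figure D4:**
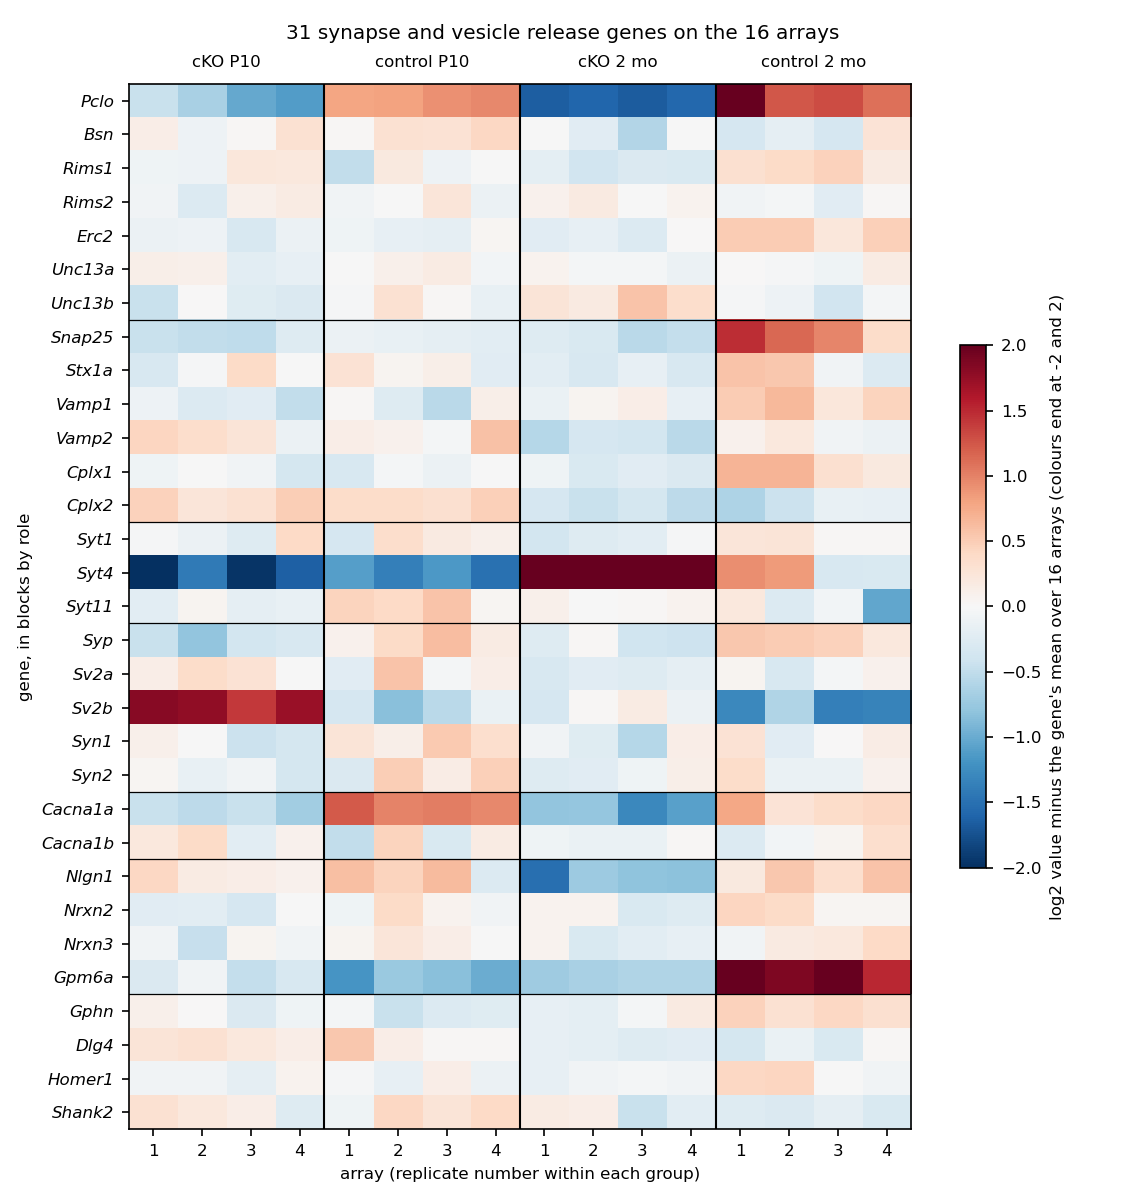
Log2 value of each of the 31 genes (rows, in blocks by role) on each of the 16 arrays (columns, by group) minus the mean of the gene over the arrays, with colours ending at -2 and 2. Pclo and Cacna1a are low in both cKO blocks, Sv2b is high in cKO nerves at P10, Syt4 is high in cKO nerves at 2 months, and Gpm6a and Snap25 are high in control nerves at 2 months.

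Further genes of the release machinery, 73 measured of 78 listed, moved in both directions. In cKO nerves at P10, 3 of them were higher than in control nerves and 8 were lower, with a median log2 change of -0.04, where 5.48% and 7.44% of all genes were called so. The counts at 2 months were 10 and 20, with a median of -0.13, where the shares of all genes were 18.5% and 15.5%. Sncg, which encodes gamma-synuclein of peripheral neurons, read 7.68, 7.77, 7.66 and 7.67 in cKO nerves at P10, against 9.27, 8.97, 9.0 and 8.70 in control nerves, and was lower at both ages (-1.29 and -1.71, standard errors 0.12 and 0.18). Relatives of the listed genes moved as well. Unc13c, another Munc13 gene, was lower at 2 months (-1.28, standard error 0.14, adjusted p = 5.72e-06 by limma), opposite to Unc13b, and Erc1, the wider expressed relative of Erc2, was lower at both ages (-0.50 and -1.06). Cacna1d, which encodes an L-type channel, was higher at 2 months (1.09, 0.15, adjusted p = 5.22e-05), when Cacna1a was lower. Dnm1 and Amph, which encode dynamin 1 and amphiphysin of vesicle endocytosis, were lower at 2 months (-1.14 and -1.11), Amph also at P10 (-0.95). The liprin gene Ppfia2 was lower at P10 (-0.87), as were Snap47 (-0.69) and Sv2c (-0.57). Sv2c averaged 4.64 in cKO nerves at P10, below the lower quartile of gene means, 4.99, and was not shown to be above background there. Syngr1 (0.75), Atp6v0a1 (0.52) and Ppfia1 (0.37) were higher at P10. At 2 months Ppfia4 (1.08), Syngr2 (0.89), Napa (0.82), the alpha-SNAP gene of SNARE recycling, and Ppfia1 (0.68) were higher.

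Of 69 further adhesion and postsynaptic genes 59 were measured. In cKO nerves at P10, 8 of these were higher and 10 were lower, with a median of -0.05, and at 2 months the counts were 7 and 18, with a median of -0.15, to be read against the same shares of all genes. The adhesion genes of the Cadm family split. Cadm3, which encodes the nectin-like protein of axons, read 7.80, 7.88, 7.78 and 8.2 in cKO nerves at P10, against 9.43, 9.74, 9.72 and 9.27 in control nerves, and 6.14, 6.14, 6.04 and 6.08 in cKO nerves at 2 months, against 9.84, 9.59, 9.48 and 9.32 in control nerves. Its changes were -1.63 (standard error 0.14, adjusted p = 1.5e-06 by limma) and -3.46 (0.11, adjusted p = 6.42e-11). Cadm4, its partner on Schwann cells, was lower at both ages (-0.78 and -1.59), and Cadm1 was higher at both (0.73 and 1.88). Il1rapl1, a postsynaptic adhesion gene, was lower at both ages (-1.80 and -2.93). It averaged 4.53 and 3.94 in cKO nerves, below the lower quartile of gene means, 4.99, and was not shown to be above background there. The AMPA receptor genes also moved apart, with Gria4 lower at both ages (-0.80 and -2.34) and Gria1 higher at 2 months (1.67, 0.26, adjusted p = 0.000145). Gria4 averaged 4.98 in cKO nerves at 2 months, just below the same quartile. Lrrtm3 (-1.04 and -1.51), Lrrc4 (-1.09 and -0.82) and Musk (-0.86 and -1.30) were lower at both ages, and Lrrc4b (1.18 and 1.22), Lrrtm1 (0.52 and 0.55) and Lrrtm2 (0.80 and 0.47) higher at both. Lrrtm1 averaged 4.52 in control nerves at 2 months, below that quartile as well. Glrb (0.76) and Shank1 (0.69) were higher at P10 alone by the test, of which Shank1 had a called interaction (-0.68, adjusted p = 0.0325) and Glrb had not (-0.74, adjusted p = 0.0613).

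**Figure D5:**
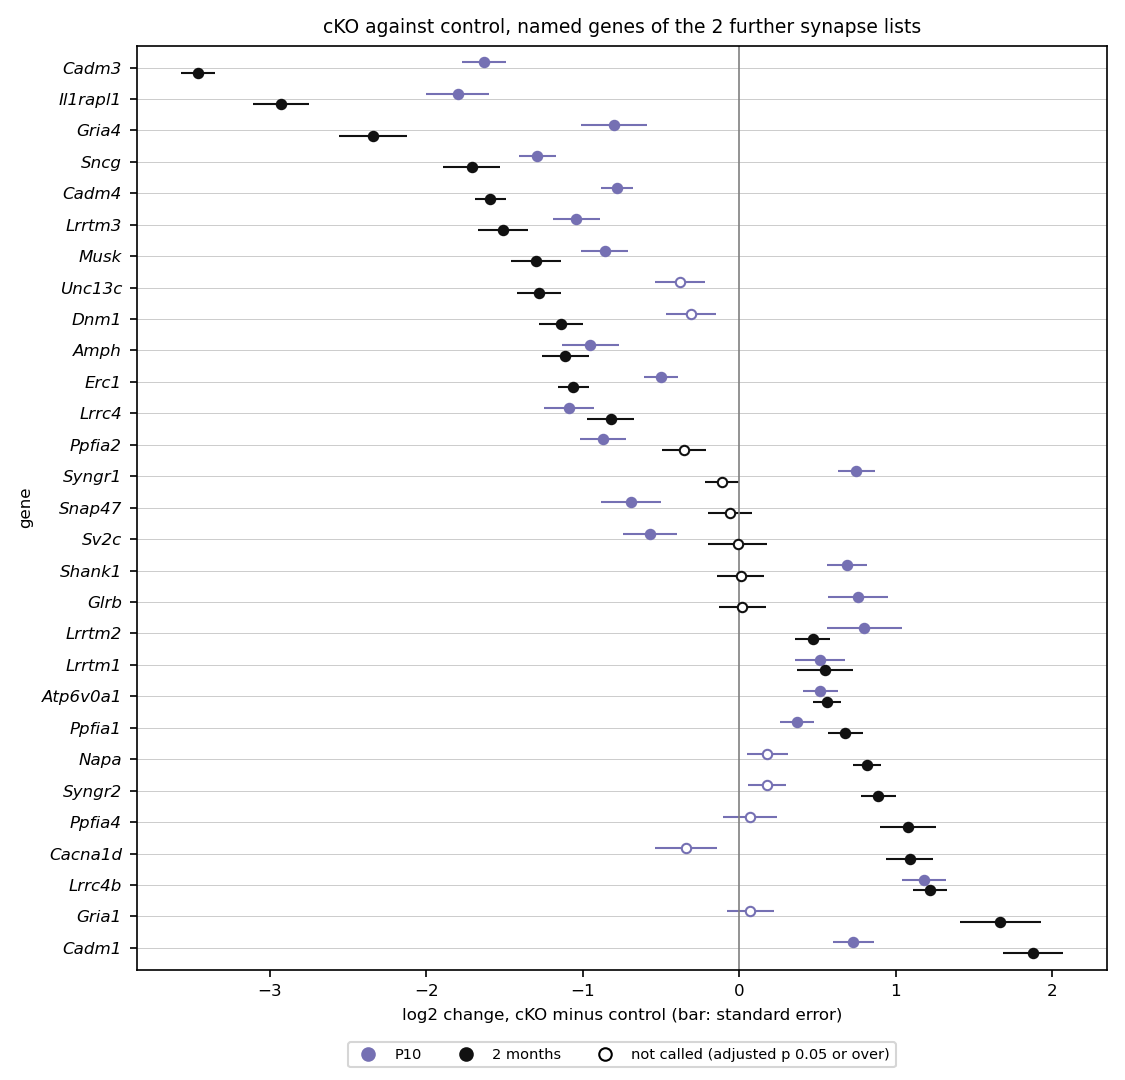
Log2 change in cKO against control nerves (x axis) of the named genes of the further release, adhesion and postsynaptic lists at P10 (violet) and 2 months (black), with bars for the standard error from limma and open points for genes not called. Cadm3, Il1rapl1 and Gria4 lie furthest left at 2 months, and Cadm1 and Gria1 furthest right. Il1rapl1 and Gria4 averaged below the lower quartile of gene means in cKO nerves at 2 months.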

How the data were processed

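Total RNA of 16 sciatic nerve samples was read on Clariom S mouse arrays. The deposited values are log2 intensities that the authors made by robust multiarray averaging (RMA), a joint background correction, quantile normalization and probe summary, and they were used as deposited. Of 22206 transcript clusters, 19572 carried a symbol in the platform annotation, giving 19505 genes, and for the 55 genes on several clusters the one with the highest mean was kept. Differences were tested with limma 3.58.1 in R 4.3.3 (lmFit, eBayes with an intensity trend, two-sided, Benjamini-Hochberg over all genes, 0.05), on the 8 arrays of an age for cKO against control and on all 16 arrays for the interaction and the age changes. The steps were tested on simulated data. SAM, which the methods of the study name, was not run. The genes and all lists were chosen with earlier results of these data known. Each of the 31 genes is named, with values per array where cKO and control nerves differed at either age or in the interaction, and of the further lists at most 5 genes per list, age and direction. Of the listed pathway and marker genes, 24 were not found. Arrays give no read depth, and the 4 arrays per group limit the precision. Alternatives were all arrays in 1 fit, median centring, further quantile normalization, no intensity trend, array weights, dim genes left out, the 5000 most variable clusters, every cluster tested, a replicate block, and each array left out. Promoter letters came from RefSeq (GRCm38.p6). The name of the Cre line is not reported here.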

Additional observations from a re-analysis of the deposited data

Results flagged for a closer look

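In 5 of 124 sets of 4 arrays (31 genes in 4 groups), 1 array stood far from the other 3 by Dixon's test, which chance gives in about 1 in 20 sets. Pclo read 8.03 in replicate 1 of the control nerves at 2 months, against 6.55 to 6.75 in the others. Erc2 read 7.08 in replicate 3 of the cKO nerves at P10, against 7.28 to 7.30, and 7.62 in replicate 3 of the control nerves at 2 months, against 7.87 to 7.90. Sv2b read 5.19 in replicate 2 of the control nerves at 2 months, against 4.43 to 4.51, and Nlgn1 read 5.20 in replicate 1 of the cKO nerves at 2 months, against 5.89 to 5.99.

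The cKO difference at 2 months departed from that at P10 by the interaction test of limma in 12 genes. The interaction was 3.02 for Syt4, 0.83 for Syt11 and 0.76 for Unc13b. It was -3.15 for Gpm6a, -1.51 for Pclo, -1.23 for Nlgn1, -1.13 for Snap25, -1.06 for Sv2b, -0.79 for Rims1, -0.69 for Cplx1, -0.61 for Gphn and -0.52 for Erc2, with adjusted p from 2.49e-10 to 0.0338 over the 12 genes.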

How the results depend on the processing

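No change of a synapse gene turned its sign in a called result under any alternative. Of the genes called, 5 of 6 at P10, 15 of 16 at 2 months, 10 of 12 in the interaction, 11 of 15 with age in control nerves and 9 of 11 with age in cKO nerves were called under every alternative that tested them. Syt11 at P10 was lost with all 16 arrays in 1 fit (adjusted p = 0.0672), and Syt1 at 2 months also in that fit (0.0923), after further quantile normalization (0.112), with array weights (0.0802) and with a replicate block (0.0808). Calls were gained by limma for Syn1 at P10 in 1 fit (adjusted p = 0.0491) and with no intensity trend (0.0442). Syt4 at P10 gained one with dim genes left out (0.045) and in the 5000 most variable clusters (0.0468). Further quantile normalization gained Homer1 at 2 months (0.0266) and the Vamp2 interaction (0.0431). Array weights gained Stx1a (0.0462) and Nrxn3 (0.0428) at 2 months and the Vamp2 interaction (0.0126). With the 5000 most variable clusters, only 9 of the 31 genes were tested: at 2 months 6 were lower, in the interaction 1 was higher and 5 lower, and with age 4 were higher and 3 lower in control nerves and 1 higher in cKO nerves. Of the further release genes 22 were tested in that way, of which 0 were higher at P10 by limma (1 at an unadjusted p under 0.05) in place of 3, and 4 higher and 12 lower at 2 months in place of 10 and 20; of the further adhesion and postsynaptic genes 5 in place of 8 were higher at P10. The 5000 clusters were picked for their variance over these same arrays. The share of them that was called is not given here, so the counts in that set have no background to be read against. Array weights gave 5 higher release genes at P10 in place of 3, and the share of all genes called with these weights is not given either.

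Leaving out 1 array gave 2 higher and 3 to 5 lower genes at P10, 3 to 4 and 12 to 15 at 2 months, 2 to 3 and 8 to 10 in the interaction, 7 to 10 and 5 to 7 with age in control nerves, and 2 and 7 to 9 with age in cKO nerves. The shares of all genes called in these fits are not given here, so the counts have no background to be read against. Genes gained a call at 2 months without control replicate 1 (Syt11 0.50, Nrxn3 -0.42), replicate 3 (Stx1a -0.54) or replicate 4 (Stx1a -0.60, Homer1 -0.36). Vamp2 gained a call in the interaction without replicate 4 of the cKO (-0.63) or control nerves (-0.65) at P10. With age, Rims1 in cKO nerves gained one without replicate 2 at P10 (-0.41), and in control nerves Bsn without replicate 1 at P10 (-0.49) or replicate 4 at 2 months (-0.55), and Homer1 without replicate 4 at 2 months (0.32). With all arrays kept, Rims1 in cKO nerves gained it with no intensity trend (adjusted p = 0.0494 by limma) or dim genes left out (0.0421). Bsn in control nerves gained it with dim genes left out (0.0476).

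Deviations of same-numbered arrays from their group means had correlations of -0.152 to 0.186 over 8 pairs (2 over 0.1, 4 best with their own number). With means of only 4 arrays, this check cannot tell whether the numbers pair the samples. The replicate block left the counts of the 31 genes as they were, except 7 in place of 6 lower with age in control nerves. The share of all genes called with the block is not given here. Stx1a gained a call at 2 months with it (adjusted p = 0.0482 by limma).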
